A study of Mus musculus with 21 samples.

Results

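Genes of the cell division cycle were followed in the skin of mice with sclerodermatous chronic graft-versus-host disease. A set of 34 genes was fixed by symbol, and all 34 were found among the 64050 symbols of the count table. All 34 also passed the filter on low counts, which 20462 genes passed. By role they comprised 3 genes of the switch from G1 to S phase, 8 of DNA replication, 12 mitotic kinases, cyclins and regulators, and 11 of the spindle, chromosomes and division machinery. Skin RNA was sequenced in 21 libraries from BALB/c recipients irradiated with 700 cGy at 8 weeks of age. Syngeneic recipients had BALB/c marrow and were given an isotype antibody, mIgG2a LALA-PG (4 libraries, 22756279 to 32899212 total counts). Allogeneic recipients had marrow from B10.D2 donors and were given the same isotype antibody (4 libraries, 18556762 to 25339128), mCAN10, an antibody against mouse IL1RAP (4 libraries, 20480765 to 29551431), water (ddH2O, 4 libraries, 17424792 to 18060310) or nintedanib, an inhibitor of receptor tyrosine kinases (5 libraries, 17130264 to 18938321). Treatment began at day 21 and skin was taken at week 7, with antibody doses of 20 and then 10 mg/kg. Nintedanib was dosed at 50 mg/kg, by mouth in one label and by intraperitoneal injection in another, so its route is not settled here. Donor strain and disease part the syngeneic and allogeneic groups together and cannot be told apart. The labels do not say that each replicate was a separate mouse, so p-values measure the spread between these samples.

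A cell enters S phase when E2F transcription factors, freed from the retinoblastoma protein, switch on cyclin E and the genes that copy DNA. The MCM helicase opens the origins, PCNA clamps the polymerases, and RRM2 and TYMS supply deoxynucleotides. Later, FOXM1, B-MYB and the MuvB complex turn on the mitotic genes through promoter elements called CHR and CCAAT boxes, and cyclin B with CDK1, the Polo and Aurora kinases and the spindle motors carry the cell through mitosis. In resting skin most such RNA comes from the basal epidermis, and a growing hair follicle adds the rapidly dividing cells of its matrix. In whole skin, fewer dividing cells and less RNA per cell cannot be told apart.

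The promoters of 6 members are given, chosen by lowest p in allogeneic against syngeneic isotype skin. The promoter windows of mitotic and replication members held these elements at different shares. A link between the elements and the members' levels was not tested. RefSeq's promoter windows (250 bases before the start site to 50 after, GRCm38.p6) matched 27 of the 34 members, with 28 windows. The windows were searched on both strands for CHR (TTTGAA or TTCGAA), the CCAAT box (CCAAT) and E2F sites (TTTCCCGC, TTTGGCGC, TTTCGCGC or TTTGCCGC), and matches are in capitals. In the 6 windows printed no CHR match overlapped a CCAAT match, and 2 E2F matches in Mcm6 overlapped each other.
Ccne1 (GRCm38.p6 chr7:38107441-38107740, minus strand): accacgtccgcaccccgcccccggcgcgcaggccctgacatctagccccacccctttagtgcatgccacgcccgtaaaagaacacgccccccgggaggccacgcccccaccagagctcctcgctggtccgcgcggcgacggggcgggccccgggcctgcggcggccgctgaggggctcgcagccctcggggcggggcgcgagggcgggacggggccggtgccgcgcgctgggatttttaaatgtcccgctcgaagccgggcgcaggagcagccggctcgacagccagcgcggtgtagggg
Rrm2 (GRCm38.p6 chr12:24708004-24708303, plus strand): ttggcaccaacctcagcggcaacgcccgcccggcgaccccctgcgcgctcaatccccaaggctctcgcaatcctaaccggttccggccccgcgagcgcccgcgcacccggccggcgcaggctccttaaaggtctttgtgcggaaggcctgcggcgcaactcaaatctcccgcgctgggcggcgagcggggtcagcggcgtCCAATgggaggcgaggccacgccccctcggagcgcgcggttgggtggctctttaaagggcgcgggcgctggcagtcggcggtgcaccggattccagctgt
Mcm6 (GRCm38.p6 chr1:128359656-128359955, minus strand): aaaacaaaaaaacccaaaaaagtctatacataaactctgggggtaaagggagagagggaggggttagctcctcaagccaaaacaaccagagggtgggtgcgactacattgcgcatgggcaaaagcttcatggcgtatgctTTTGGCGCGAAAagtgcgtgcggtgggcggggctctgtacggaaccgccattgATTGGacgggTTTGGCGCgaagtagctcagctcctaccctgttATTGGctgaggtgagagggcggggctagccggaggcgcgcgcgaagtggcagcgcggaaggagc
Bub1b (GRCm38.p6 chr2:118597961-118598260, plus strand): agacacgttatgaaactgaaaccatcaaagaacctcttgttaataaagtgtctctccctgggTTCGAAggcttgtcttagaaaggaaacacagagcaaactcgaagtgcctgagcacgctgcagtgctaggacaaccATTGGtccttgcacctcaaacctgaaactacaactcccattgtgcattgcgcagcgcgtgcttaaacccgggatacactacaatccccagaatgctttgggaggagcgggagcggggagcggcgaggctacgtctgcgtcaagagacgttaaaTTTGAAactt
Top2a (GRCm38.p6 chr11:99024140-99024439, minus strand): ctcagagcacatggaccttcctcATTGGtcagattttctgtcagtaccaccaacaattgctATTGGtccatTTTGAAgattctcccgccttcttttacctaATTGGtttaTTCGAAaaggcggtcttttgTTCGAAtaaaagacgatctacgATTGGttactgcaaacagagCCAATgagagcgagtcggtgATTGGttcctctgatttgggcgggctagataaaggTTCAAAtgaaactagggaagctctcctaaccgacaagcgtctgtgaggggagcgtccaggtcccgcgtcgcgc
Prc1 (GRCm38.p6 chr7:80294201-80294500, plus strand): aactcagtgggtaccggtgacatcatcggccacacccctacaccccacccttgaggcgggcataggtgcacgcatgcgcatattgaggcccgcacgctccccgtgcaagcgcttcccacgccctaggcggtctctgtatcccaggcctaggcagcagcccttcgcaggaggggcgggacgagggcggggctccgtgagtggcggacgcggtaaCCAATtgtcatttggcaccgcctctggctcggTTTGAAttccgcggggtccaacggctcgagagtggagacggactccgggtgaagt
A CHR stood in 15 of 19 windows of mitotic and spindle members (78.9%), in 1 of 9 windows of replication and G1 to S members (11.1%) and in 19.2% of all 32851 windows of this length. The same 15 mitotic windows held a CCAAT box too, a pair found in 7.52% of all windows. E2F letters stood in 3 of the 9 replication and G1 to S windows (33.3%), in 1 of the 19 mitotic windows (5.26%) and in 2.26% of all windows. Top2a had 4 CHR and 6 CCAAT matches, with the CHR nearest the start at position -23, and Prc1 had 1 of each at -5 and -37. Mcm6 had 3 E2F and 2 CCAAT matches and no CHR. Ccne1 and Rrm2 had no E2F match and no CHR. These matches describe letters in a window and were not tested as binding sites.

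The libraries fall into 2 sets counted with different gene names: a first run of 12 libraries (syngeneic, allogeneic isotype, anti-IL1RAP) and a second run of 9 (water, nintedanib). Of all symbols, 21830 had counts in both runs, so each group was tested only against groups of the same run. The difference of the 2 treatment effects spans both runs, with each effect taken within its own run. Levels of the 2 allogeneic control groups were set side by side across runs as description. The main fit nevertheless held the libraries of both runs, which shared its filter, scaling and estimate of the spread. All 8 skin markers (keratins 1, 5, 10 and 14, loricrin, collagen I and decorin) were detected in every group, with summed CPM (counts scaled by TMM to a library of 1e+06) of 8987 to 85137. In nintedanib replicates 1 and 3 the sum of 26 growing hair genes was 69386 and 23877 CPM. It was 51 to 85 in the other 3 nintedanib libraries and at most 721, in allogeneic isotype replicate 1, among the remaining 16. The hair keratin Krt85 was at 0 in every library of the first run.

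The count of 1 member, Ube2c, followed that of a muscle gene in the first run. UBE2C is the ubiquitin-conjugating enzyme with which the anaphase-promoting complex ends mitosis. Its count was 730 to 90762 over the 12 first-run libraries, and it exceeded the count of Tnnc2, troponin C of fast skeletal muscle, by only 133 to 727 reads in each of them. The Tnnc2 count was 99.8% of the Ube2c count where it came closest, and 0.411% in allogeneic isotype replicate 1, where Tnnc2 had 3 reads. In the second run Ube2c had 82 to 1550 reads and Tnnc2 2236 to 27214, so there Tnnc2 was the higher in all 9 libraries. In the GENCODE vM21 annotation (GRCm38, an older build than the authors' GRCm39) the 2 genes lie on opposite strands and their exons share 592 bases, 22.8% of the exonic bases of Ube2c and 74% of those of Tnnc2. The library kit does not mark strand, and the sources used here do not say how reads in shared exons were assigned.

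**Figure D1:**
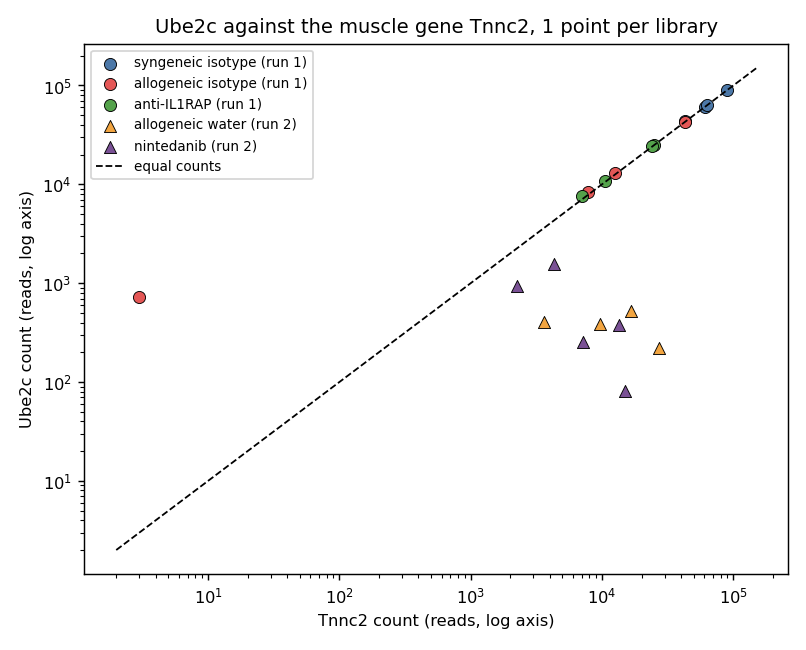
Counts of Ube2c (y axis, reads) against counts of the muscle gene Tnnc2 (x axis, reads), both on log axes, with 1 point per library and a dashed line at equal counts. First-run libraries (circles) lie on or near the line except allogeneic isotype replicate 1 with 3 Tnnc2 reads, while second-run libraries (triangles) lie below it.

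With the Tnnc2 count taken away, first-run Ube2c was 5.19, 8.41, 18.9 and 18.3 CPM in syngeneic replicates 1 to 4. It was 33.3, 26.7, 16.9 and 25.8 in allogeneic isotype and 14.0, 18.5, 9.75 and 10.7 in anti-IL1RAP skin. These remainders are ordered between libraries much like the other mitotic members described below, with low syngeneic replicates 1 and 2 and a high allogeneic isotype replicate 1. The uncorrected log2 fold change of allogeneic over syngeneic isotype was -1.58 ± 0.84 (SE; adjusted p = 0.193, edgeR), and with Tnnc2 taken away, a step chosen after seeing the data, it was 1.02 ± 0.58 (adjusted p = 0.228). Neither passed.

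Kif20a, a mitotic kinesin needed for cytokinesis, and Ccne2, cyclin E2, also differed between runs. Mean CPM in allogeneic isotype over that in allogeneic water was 38.9 for Ube2c, 12.5 for Kif20a and 3.46 for Ccne2, against 0.751 to 1.88 (median 1.03) for the other 31 members. Kif20a shares exonic bases with Cdc23 (29.3% of its own) and Ccne2 with Ints8 (17.4%), each on the opposite strand. In all, 7 members overlap a protein-coding gene on the opposite strand (Ccna2, Ccne2, Cdc20, Kif20a, Nusap1, Prc1 and Ube2c) and 1 on the same strand (Foxm1). The part of the shared exons in the Kif20a and Ccne2 values was not tested, and both are left out of the level scores, as is Ube2c.

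In allogeneic isotype skin 3 of 34 members were higher than in syngeneic skin and none was lower: Ccne1, Rrm2 and Mcm6. All 3 have roles in the entry into or the conduct of DNA replication, but the roles called differed between fits, as given below. The background in the same fit was 13.8% of 20462 genes higher and 8.8% lower, and the members' share of calls was not above it. At an unadjusted p under 0.05, 12 members were higher and 0 lower, against 20.1% and 15.1% of all genes. The log2 fold change was above 0 for 32 of 34 members (53.2% of all genes), the exceptions being Ube2c and Ccne2, and the median was 0.94 against a median of 0.00 over all genes.

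Ccne1, cyclin E1, the partner of CDK2 at the G1 to S border, read 3.90, 2.70, 1.97 and 1.34 CPM in syngeneic replicates 1 to 4. In allogeneic isotype replicates 1 to 4 it read 8.26, 8.68, 5.66 and 5.56 CPM. The groups did not overlap, and the level was 2.84-fold higher (log2 1.51 ± 0.42 SE, adjusted p = 0.0151, edgeR quasi-likelihood test). E2f1, which drives cyclin E and the replication genes, read 13.5, 14.5, 8.55 and 10.3 CPM in syngeneic and 20.7, 16.0, 10.2 and 13.8 in allogeneic isotype skin. Its groups overlapped and it did not pass (log2 0.37 ± 0.27, adjusted p = 0.352). Ccne2 read 9.81 to 12.7 CPM in syngeneic and 8.41 to 11.6 in allogeneic isotype skin. The part of the exons shared with Ints8 in these values was not tested.

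Rrm2, the regulated subunit of ribonucleotide reductase, read 12.4, 13.2, 23.6 and 17.6 CPM in syngeneic and 50.6, 42.6, 28.2 and 40.002 in allogeneic isotype skin. Every allogeneic library was above every syngeneic one, a 2.41-fold difference (log2 1.27 ± 0.36, adjusted p = 0.0158, edgeR). Mcm6, a subunit of the replicative helicase, read 20.6, 26.3, 18.2 and 13.4 CPM in syngeneic and 45.8, 37.8, 31.3 and 35.6 in allogeneic isotype skin. It too did not overlap and was 1.92-fold higher (log2 0.94 ± 0.29, adjusted p = 0.0240, edgeR). The other 6 replication members, Mcm2 to Mcm5, the clamp Pcna and thymidylate synthase Tyms, did not pass, though all 8 had a fold change above 0 (median 0.60, range 0.39 to 1.27).

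No mitotic or spindle member passed in this comparison, although the median log2 fold change was 1.17 for the 12 mitotic regulators and 0.98 for the 11 spindle and division members. Bub1b, the checkpoint kinase BUBR1, read 2.54, 3.30, 8.19 and 6.74 CPM in syngeneic and 22.0, 14.7, 7.30 and 14.2 in allogeneic isotype skin (log2 1.49 ± 0.58, adjusted p = 0.0708, edgeR). Syngeneic replicate 3 lay above allogeneic replicate 3, so the groups overlapped by this one library on each side. Plk1, the Polo kinase, read 3.40, 3.82, 10.2 and 7.91 against 25.5, 12.5, 8.85 and 13.9 CPM and overlapped in the same way (log2 1.26 ± 0.55, adjusted p = 0.105). Top2a, the topoisomerase that untangles sister chromosomes, read 9.80, 16.7, 34.2 and 25.998 against 71.3, 60.0, 33.8 and 54.8 CPM (log2 1.34 ± 0.51, adjusted p = 0.0632). Prc1, which bundles the microtubules of the central spindle, read 6.32, 9.26, 16.8 and 13.7 against 30.0, 23.7, 13.6 and 25.6 CPM (log2 1.01 ± 0.43, adjusted p = 0.103). In all 4 genes the overlap came from high syngeneic replicate 3 and low allogeneic replicate 3, with syngeneic replicate 4 also above allogeneic replicate 3 for Prc1 alone. Aurkb and Foxm1 were the only mitotic members whose groups did not overlap. With the 3 called members this made 5 of 34, against 16.8% of all genes.

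The number called differed between fits. When the 12 first-run libraries were fitted alone, 13 of 34 members were higher (18.5% of 19438 genes) and 0 lower. These were Ccne1, Rrm2, Mcm6 and Mcm3 together with 9 mitotic and spindle members, namely Aurkb, Bub1, Bub1b, Cdk1, Cenpe, Foxm1, Plk1, Top2a and Tpx2. With only the 2 groups in the fit 6 were higher (14.3% of genes), and with DESeq2 on all libraries 5 (15.5%). The count was 1 without allogeneic isotype replicate 2 (9.95% of genes) or without syngeneic replicate 4 (10.4%), and 2 with no filter on low counts (5.17%). Mcm6 lost its call with no filter and without allogeneic isotype replicate 1 or 2 or syngeneic replicate 3 or 4 (highest adjusted p = 0.0810). Ccne1 lost it without allogeneic isotype replicate 2 or syngeneic replicate 4 (highest adjusted p = 0.0532), and Rrm2 without syngeneic replicate 1 (adjusted p = 0.0526).

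**Figure D2:**
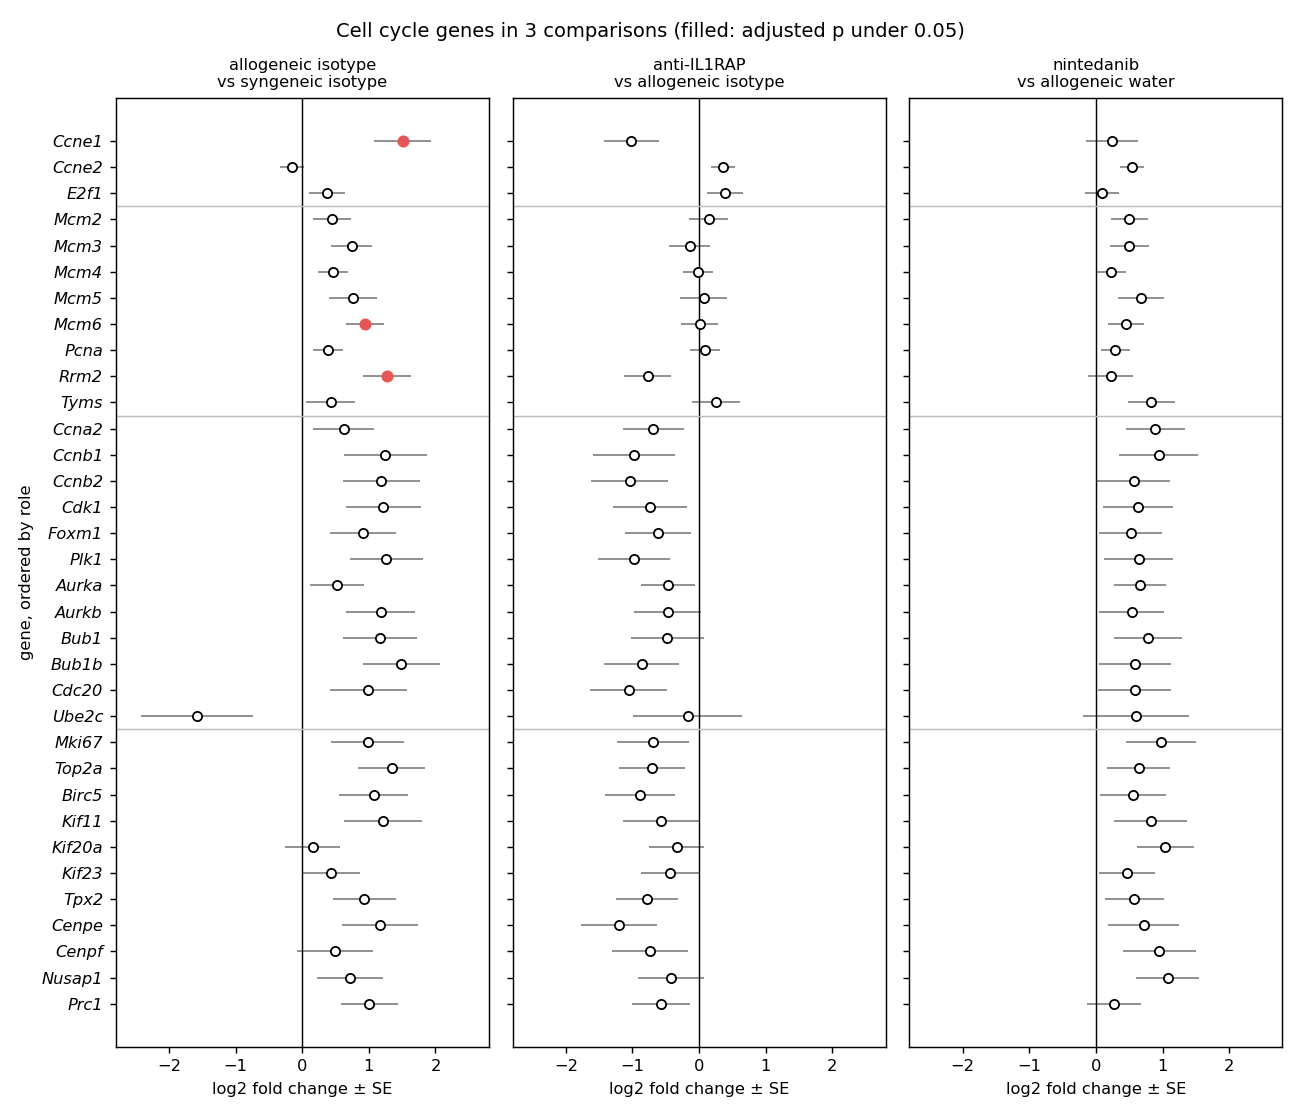
Log2 fold change (x axis, point) ± SE (bar) of the 34 genes (y axis, by role) in 3 comparisons from the edgeR fit of all 21 libraries. Filled points have an adjusted p under 0.05, which only Ccne1, Rrm2 and Mcm6 reached, in allogeneic against syngeneic isotype skin.

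Within a group, most members shared the same highest and lowest libraries. These ranks were counted for members only, so they are not shown to be particular to them. Allogeneic isotype replicate 1 was the highest of its group in 32 of 34 members and replicate 3 the lowest in 32. Anti-IL1RAP replicates 1 and 2 were the top pair in nearly all members, replicate 1 in 33 and replicate 2 in 32, and replicate 3 was the lowest in 32. Among water libraries replicate 2 was highest in 30 members and replicate 1 lowest in 30. In the syngeneic group mitotic and replication genes parted. Replicates 3 and 4 were the top pair for all 21 mitotic and spindle members (Ube2c and Kif20a left out), whereas replicate 4 was the lowest library for 6 of 8 replication members and replicate 2 the highest for 5. The mean log2 CPM of the 21 mitotic and spindle members in syngeneic replicates 1 to 4 was 2.15, 2.60, 3.71 and 3.51, and that of the 8 replication members was 4.39, 4.61, 4.47 and 4.13. Within a group the highest library stood 1.23 to 2.33 times above the lowest for replication members in syngeneic, allogeneic isotype, anti-IL1RAP and water skin, and 1.31 to 5.70 times for mitotic and spindle members without Ube2c.

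**Figure D3:**
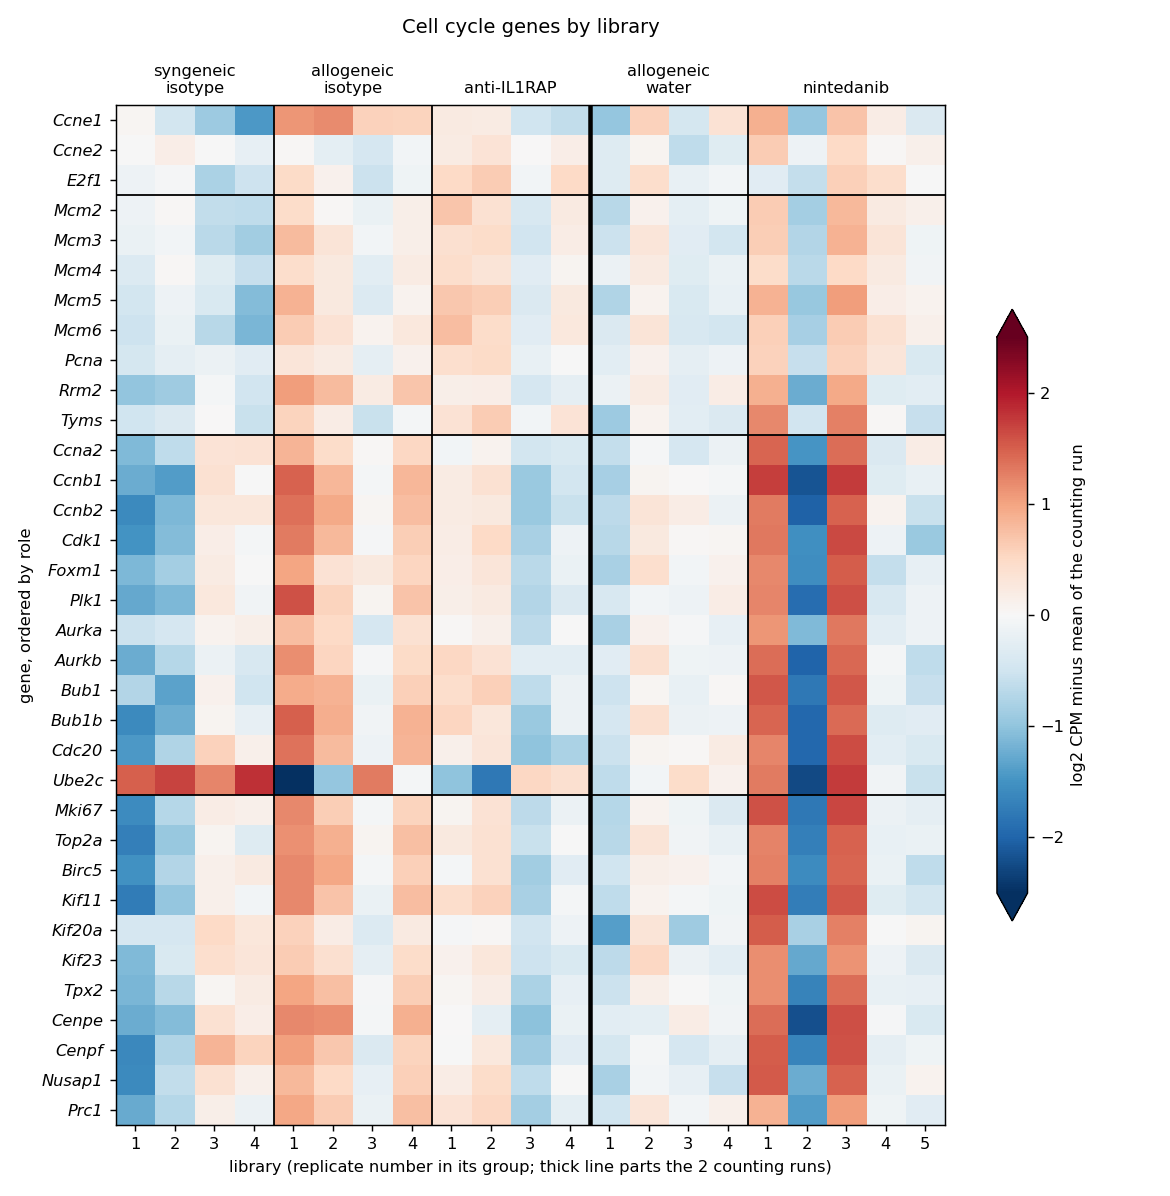
Log2 CPM of the 34 genes (rows, by role) in the 21 libraries (columns, by group and replicate number), each gene centred on the mean of its counting run, with red above and blue below that mean. Nintedanib replicates 1 and 3 are red and replicate 2 is blue for nearly all genes, and Ube2c runs against the other mitotic genes in the first run.

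Skeletal muscle RNA varied between the same libraries. The summed CPM of 11 muscle markers in allogeneic isotype replicates 1 to 4 was 13, 10196, 51779 and 22336, beside mean mitotic and spindle levels of 4.60, 4.18, 3.39 and 4.13 log2 CPM. In anti-IL1RAP skin it was 8937, 4124, 23810 and 22852 beside 3.66, 3.79, 2.73 and 3.23. In both groups the library with the least muscle RNA had the highest mitotic level and the one with the most had the lowest. Muscle markers summed to 34503 to 50551 CPM in syngeneic and 5815 to 46211 in water skin. In water skin the lowest mitotic level also lay in the library with the most. The highest level there lay in replicate 2 (16695 CPM), not in replicate 4, which had the least. In syngeneic skin the highest level lay in replicate 3, with the least muscle RNA. The lowest level there lay in replicate 1 (41924 CPM), not in replicate 2, which had the most. Against syngeneic skin 1 of the 11 was lower in allogeneic isotype skin. The 6 adipocyte markers varied too. They summed to 8137, 2861, 2234 and 2229 CPM in syngeneic replicates 1 to 4. In allogeneic isotype skin they summed to 2156, 3700, 179 and 847 CPM. In anti-IL1RAP skin the sums were 2230, 3245, 5834 and 5264, and in water skin 922, 38, 1411 and 693. Nintedanib replicates 1 to 5 had 1071, 6709, 1309, 320 and 700 CPM. The part of muscle and adipocyte RNA in the members' levels was not tested.

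Markers of other cell types differed between allogeneic isotype and syngeneic skin too. The summed CPM of 14 T cell markers was 226, 278, 116 and 130 in allogeneic isotype replicates 1 to 4 and 34 to 66 in syngeneic skin, with 12 of the 14 markers higher in the allogeneic group. Activated keratinocyte markers summed to 4319 to 9415 CPM in allogeneic isotype and 854 to 1367 in syngeneic skin, and 10 of 12 tested were higher. The 9 basal keratinocyte markers, at 13889 to 17709 against 9350 to 15977 CPM, had 1 higher and 1 lower. Macrophage and monocyte markers summed to 1581 to 4551 against 637 to 1255 CPM, with 6 of 10 higher, and fibroblast markers to 719 to 3876 against 4446 to 5652, with 4 of 9 lower. Immediate early genes, which respond to tissue handling, summed to 1049 to 1898 against 635 to 932 CPM, with 3 of 10 higher. Growing hair genes summed to 721 CPM in allogeneic isotype replicate 1 and to 48 to 114 in the other 3. The part of these cell types in the members' levels was not tested.

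Treatment with the antibody against IL1RAP called no member: 0 of 34 were higher and 0 lower than in allogeneic isotype skin, where 5.58% of all genes were higher and 5.19% lower. At an unadjusted p under 0.05 in edgeR 3 were lower (11.6% of all genes), namely Ccne1, Rrm2 and Cenpe, and DESeq2 called 0 (7.72% of genes higher, 7.82% lower). All 23 mitotic and spindle members had a fold change below 0, with medians of -0.71 and -0.69 on the log2 scale for regulators and spindle members. The 23 include Kif20a and Ube2c, which are left out of the level scores. The Ube2c count followed that of Tnnc2, and its change ran from -0.96 to 0.81 over the alternatives. The 8 replication members had a median of 0.04, and over all genes the median was 0.00. In all, 27 of 34 members lay below 0, where 47% of all genes lay above it. This comparison and that of allogeneic with syngeneic skin share the allogeneic isotype libraries, so opposite signs in them are not independent.

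Ccne1 read 4.44, 4.37, 2.63 and 2.43 CPM in anti-IL1RAP replicates 1 to 4, below all 4 allogeneic isotype libraries (5.56 to 8.68). Its log2 fold change was -1.02 ± 0.42 (adjusted p = 0.130, edgeR). Rrm2 read 27.2, 27.7, 18.4 and 21.1 CPM, likewise below the isotype libraries (28.2 to 50.6), with a log2 fold change of -0.77 ± 0.36 (adjusted p = 0.185). These were the only 2 members whose groups did not overlap, against 10.9% of genes lower without overlap. They were also the 2 members called lower when the first-run libraries were fitted alone, with adjusted p of 0.0484 for Ccne1 and 0.0347 for Rrm2 (9.19% of genes higher, 9.66% lower). With only the 2 groups in the fit Ccna2 and Cenpe joined them (7.91% of genes).

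Mcm6 read 50.5, 40.9, 24.2 and 35.5 CPM in anti-IL1RAP skin, which spans the isotype libraries (31.3 to 45.8), for a log2 fold change of 0.01 ± 0.28 (adjusted p = 1.00, edgeR). E2f1 read 21.1, 23.1, 14.1 and 21.0 CPM (log2 0.38 ± 0.27, adjusted p = 0.421) and Ccne2 11.3 to 14.3 CPM (log2 0.35 ± 0.18, adjusted p = 0.244). In the G1 to S switch Ccne1 lay below the isotype level and E2f1 and Ccne2 above it. None of them passed, so a difference of direction within this role is not shown. The part of the exons shared with Ints8 in the Ccne2 values was not tested. Among mitotic members Plk1 read 9.38, 9.81, 5.02 and 6.55 CPM (log2 -0.98 ± 0.54, adjusted p = 0.287) and Bub1b 11.3, 9.52, 4.06 and 7.05 (log2 -0.86 ± 0.57, adjusted p = 0.384). Top2a read 38.2, 42.4, 21.9 and 32.1 CPM (log2 -0.71 ± 0.50, adjusted p = 0.424), and Prc1 19.4, 21.7, 8.41 and 12.9 (log2 -0.57 ± 0.43, adjusted p = 0.458). In these 4 genes anti-IL1RAP replicates 1 and 2 lay above allogeneic isotype replicate 3, so the groups overlapped. Cenpe, the motor that carries chromosomes to the spindle equator, read 5.67, 4.81, 2.72 and 4.99 CPM against 5.46 to 13.2 in isotype skin (log2 -1.20 ± 0.57, adjusted p = 0.202).

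Beside these values, T cell markers summed to 76 to 190 CPM in anti-IL1RAP skin, with 190 in replicate 1, and none of the 14 passed against isotype. Activated keratinocyte markers summed to 1178 to 1678 CPM, with 10 of 12 tested lower. Their part in the members' levels was not tested.

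Against syngeneic skin the anti-IL1RAP group likewise had 0 members higher and 0 lower, where only 0.777% of genes were higher and 0.0342% lower. At an unadjusted p under 0.05 in edgeR 4 were higher (Mcm6, E2f1, Mcm5 and Pcna, against 9.52% of genes) and 0 lower (4.17%), and DESeq2 called 0 (2.51% of genes higher). In the fit of the first run alone 2.17% of genes were higher. In all, 27 of 34 members lay above 0 (58% of genes), and Ube2c was the 1 member lower without overlap (8.05%). All 8 replication members lay above 0, with a median of 0.59 that is close to the 0.60 of allogeneic isotype skin, while the medians were 0.28 for mitotic regulators and 0.18 for spindle members. Both replication medians were taken over the same syngeneic libraries, so their closeness is not independent. Mcm6 had a log2 fold change of 0.95 ± 0.29 (adjusted p = 0.139, edgeR), E2f1 of 0.76 ± 0.27 (0.222), Mcm5 of 0.83 ± 0.35 (0.307) and Pcna of 0.47 ± 0.22 (0.365). With only the 2 groups in the fit 2 members were higher (Mcm6 and Tyms, 5.58% of genes) and Ube2c, with its Tnnc2 reads, was lower (5.67%).

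**Figure D4:**
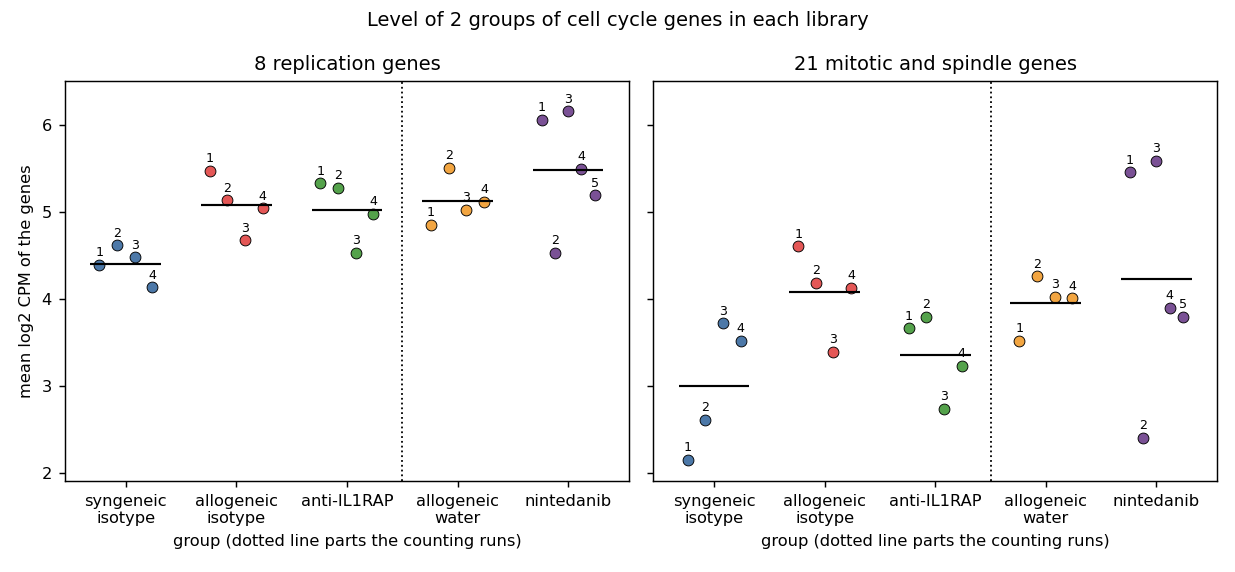
Mean log2 CPM (y axis) of the 8 replication genes and of 21 mitotic and spindle genes (Ube2c and Kif20a left out) in each library (points, with replicate numbers) by group, with a line at the group mean. Replication genes in the 4 anti-IL1RAP libraries (4.52 to 5.32) partly overlap those of allogeneic isotype skin (4.67 to 5.47), and nintedanib replicates 1 and 3 top both panels.

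In the second run nintedanib called no member against water: 0 of 34 were higher and 0 lower, where 5.56% of all genes were higher and 3.76% lower. At an unadjusted p under 0.05 in edgeR 4 were higher (Ccne2, Kif20a, Tyms and Nusap1, against 15.3% of genes) and 0 lower, and DESeq2 called 1, Ccne2 (8.87% of genes). The second-run libraries fitted alone called 0 members (0.382% of genes higher, 0.197% lower). All 34 had a fold change above 0 (48% of genes) with a median of 0.59, and 0 were higher without overlap (4.75%). That direction rested on 2 libraries. Replicates 1 and 3, the pair with growing hair genes, both lay above the other 3 nintedanib libraries in 33 of 34 members, and above all 4 water libraries in 33. These counts were not taken over all genes, so they are not shown to be particular to the members.

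The gap was wider for mitosis than for replication. The mean CPM of replicates 1 and 3 over that of the other 3 was 1.54 to 2.94 for replication members (median 1.78), 3.20 to 5.22 for mitotic regulators (median 4.35) and 2.74 to 4.96 for spindle members (median 3.71). Mki67, the proliferation antigen Ki-67, read 196 and 206 CPM in replicates 1 and 3. In replicates 2, 4 and 5 it read 18.5, 58.4 and 54.9, and in water 39.3, 68.3, 59.4 and 50.2. Replicate 2 stood at the other end: it was below every water library in 31 of 34 members (not counted over all genes), and its mitotic mean was 2.40 log2 CPM against 3.52 to 4.26 in water. Replicates 4 and 5, at 3.90 and 3.79, lay within the water range.

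Without replicates 1 and 3 the median log2 fold change of the members was -0.47, 27 of 34 lay below 0, and 0 were called (2.53% of genes higher, 3.35% lower). The 2 water and 3 nintedanib libraries with a note on 2 sequencing lanes gave a median of 0.52 and those without it 0.82, each with 1 hair-bearing library, and no gene at all was called within either set. Of 25 growing hair genes tested in the fit of all libraries 16 were higher in nintedanib skin. Calls of marker genes were not repeated in the second run alone. Activated keratinocyte markers summed to 873 to 2828 CPM with nintedanib and 2317 to 11373 in water, with 6 of 12 lower, and none of the 14 T cell markers passed. T cell markers summed to 26.8 and 44.3 CPM in nintedanib replicates 1 and 3, the lowest of the group, and to 53.3, 189 and 112 in replicates 2, 4 and 5. Muscle markers summed to 4409 and 5352 CPM in replicates 1 and 3 and to 20181 to 26130 in the other 3. Immediate early genes summed to 621 to 922 CPM with nintedanib and 1232 to 1775 in water, with 4 of 10 lower. The part of these other cell types in the members' levels was not tested.

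**Figure D5:**
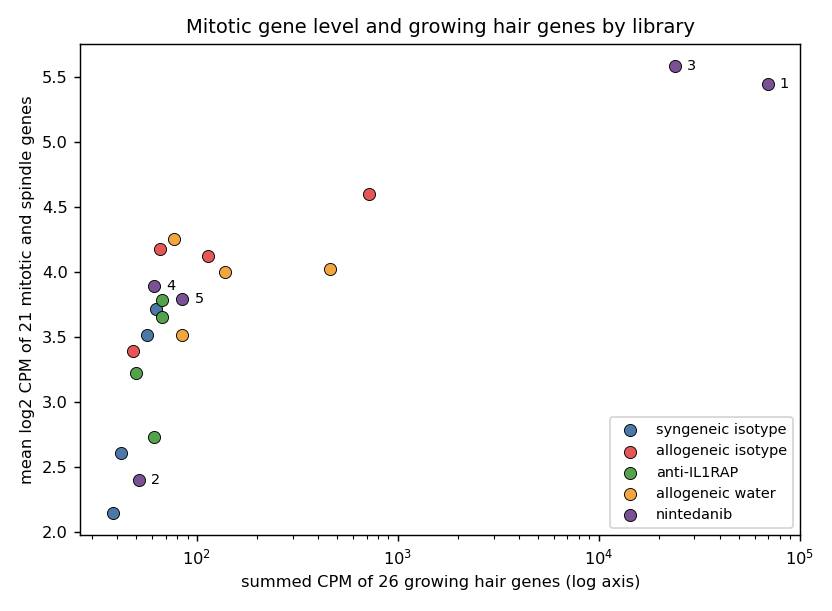
Mean log2 CPM of 21 mitotic and spindle genes (y axis, Ube2c and Kif20a left out) against the summed CPM of 26 growing hair genes (x axis, log), 1 point per library coloured by group, with replicate numbers beside nintedanib points. Nintedanib replicates 1 and 3 stand apart at 69386 and 23877 CPM with the highest mitotic levels, while the other libraries spread from 2.15 to 4.60 at hair sums of up to 721 CPM.

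Ccne2 read 2.81, 3.71, 2.24 and 2.85 CPM in water and 5.51, 3.23, 5.03, 3.57 and 3.85 in nintedanib replicates 1 to 5 (log2 0.55 ± 0.18, adjusted p = 0.0619, edgeR). Ccne1 read 3.42, 10.0, 4.94 and 8.72 CPM in water and 12.6, 3.39, 11.1, 7.62 and 5.22 with nintedanib (log2 0.24 ± 0.39, adjusted p = 0.824). E2f1 was the member in which replicate 1 was not high, at 14.1 CPM beside 26.2 in replicate 3 and 23.4 in replicate 4 (log2 0.10 ± 0.26, adjusted p = 0.952). Among replication genes Mcm6 read 37.4, 60.4, 36.5 and 35.2 CPM in water and 72.8, 27.2, 75.1, 62.9 and 52.6 with nintedanib (log2 0.46 ± 0.27, adjusted p = 0.316). Rrm2 read 37.3, 47.5, 33.8 and 46.6 against 76.4, 17.4, 79.6, 33.3 and 34.2 CPM (log2 0.22 ± 0.34, adjusted p = 0.791). For Mcm6 replicate 4 lay above all 4 water libraries and replicate 5 above 3 of them, whereas for Rrm2 replicate 4 lay below all 4 and replicate 5 below 3.

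The mitotic members showed the widest spread. Top2a read 37.3, 75.5, 56.3 and 53.1 CPM in water and 142, 18.2, 167, 52.7 and 53.9 in nintedanib replicates 1 to 5 (log2 0.64 ± 0.48, adjusted p = 0.443, edgeR). Bub1b read 9.95, 17.7, 12.1 and 12.2 against 37.0, 3.34, 35.7, 10.7 and 11.0 CPM (log2 0.59 ± 0.54, adjusted p = 0.566). Plk1 read 10.1, 12.8, 12.2 and 15.2 against 31.3, 3.50, 40.9, 10.2 and 12.3 CPM (log2 0.64 ± 0.52, adjusted p = 0.492). In all 3 the nintedanib libraries lay on both sides of the water group. Over the mitotic regulators without Ube2c the highest nintedanib library was 5.52 to 15.2 times the lowest, the latter for Ccnb1, cyclin B1. Prc1 read 17.6, 30.5, 23.5 and 27.2 CPM in water and 44.99, 9.38, 51.4, 23.1 and 20.2 with nintedanib (log2 0.27 ± 0.41, adjusted p = 0.787).

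The difference between the 2 treatment effects, each against the control of its own run, was not called for any member, nor for any of the 20462 genes (0%). At an unadjusted p under 0.05 in edgeR 10 members had a lower effect of the antibody (7.48% of genes) and 0 a higher one (4.72%), and DESeq2 called 0 members (0.738% of genes higher, 1.04% lower). The median difference was -1.26 on the log2 scale, and -0.20 without nintedanib replicates 1 and 3, where 0.0096% of genes were called in each direction. Ccnb1 had the largest, -1.92 ± 0.85 (adjusted p = 0.368), and the spread of the nintedanib libraries enters this SE.

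Other genes of the pathway were read from 3 lists. Of 46 other replication genes 8 were higher in allogeneic isotype than in syngeneic skin, of 60 other mitosis genes 1 was, and of 45 genes of cell cycle entry and its brakes 9 were higher and 2 lower, beside the 13.8% and 8.8% of all genes. Timeless, part of the replication fork protection complex, read 13.2, 13.0, 12.0 and 10.5 CPM in syngeneic and 39.9, 58.8, 49.9 and 48.3 in allogeneic isotype skin. Its lowest allogeneic library was replicate 1, the one in which most members were highest, and it rose by 2.01 ± 0.23 on the log2 scale (adjusted p = 2.76e-05, edgeR). Orc1, the largest subunit of the origin recognition complex, rose by 1.23 ± 0.30 (adjusted p = 0.00667) and Pola1, the catalytic subunit of polymerase alpha, by 0.81 ± 0.20 (adjusted p = 0.00786). In the mitosis list only Gtse1, a microtubule-binding regulator of p53, passed (log2 1.12 ± 0.38, adjusted p = 0.0420), beside Incenp at 0.99 ± 0.37 (0.0624) and Melk at 1.25 ± 0.48 (0.0713). The calls of Pola1 and Gtse1 were not examined in other fits.

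The largest change in these lists was in a brake. Cdkn2a, which encodes the inhibitors p16INK4a and p19ARF, read 0.741, 0.172, 0.0895 and 0.458 CPM in syngeneic replicates 1 to 4 and 5.69, 13.9, 12.3 and 6.19 in allogeneic isotype skin. It rose by 4.66 ± 0.74 on the log2 scale (adjusted p = 0.000319, edgeR), from a syngeneic level under 1 CPM in every library. E2f8, an E2F that represses S phase genes, rose by 1.52 ± 0.33 (adjusted p = 0.00284), a call not examined in other fits. Cdkn1b, the inhibitor p27, ran the other way: it read 95.4, 105, 106 and 107 CPM in syngeneic and 69.8, 64.1, 70.1 and 90.8 in allogeneic isotype skin and fell by 0.49 ± 0.11 (adjusted p = 0.00362).

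Some genes of these lists passed under treatment. With the antibody, 1 of 46 replication genes was higher and 2 lower, 0 of 60 mitosis genes passed (0 also at an unadjusted p under 0.05), and 1 of 45 entry or brake genes was higher and 4 lower. Of all genes 5.58% were higher and 5.19% lower, and at an unadjusted p under 0.05 12.9% and 11.6%. Timeless read 21.5, 18.3, 15.3 and 21.0 CPM in anti-IL1RAP skin and fell by 1.37 ± 0.23 (adjusted p = 0.00129, edgeR). Cdkn2a read 2.47, 1.17, 1.34 and 1.60 CPM and fell by 2.53 ± 0.65 (adjusted p = 0.0169), and Cdkn1b read 110 to 115 CPM and rose by 0.61 ± 0.11 (adjusted p = 0.00203). In all 3 genes the anti-IL1RAP libraries lay clear of the isotype libraries. Gins4, of the helicase-activating GINS complex, rose by 0.33 ± 0.09 (adjusted p = 0.0258), Mdm2, the p53 ligase, fell by 0.36 ± 0.10 (0.0206), and Orc1 fell by 0.95 ± 0.30 (0.0477). In the mitosis list the lowest p belonged to Kif2c at -1.18 ± 0.61 (adjusted p = 0.246), Kif15 at -0.97 ± 0.53 (0.282) and Gtse1 at -0.68 ± 0.38 (0.293). Against syngeneic skin no gene of the 3 lists passed in the anti-IL1RAP group, the nearest being Pold3, a polymerase delta subunit, at 0.51 ± 0.13 (adjusted p = 0.0724). The Cdkn2a call was lost without anti-IL1RAP replicate 2, 3 or 4 (highest adjusted p = 0.0561), and the Orc1 call without any of 6 single libraries. The calls of Gins4 and Mdm2 were not examined in other fits.

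With nintedanib, 4 of 46 replication genes were higher and 1 lower, 0 of 60 mitosis genes passed (10 at an unadjusted p under 0.05), and 4 of 45 entry or brake genes were higher and 1 lower. Of all genes 5.56% were higher and 3.76% lower, and at an unadjusted p under 0.05 15.3% and 10.1%. Timeless read 27.5, 55.1, 33.4 and 43.7 CPM in water and 22.0, 14.8, 32.5, 24.7 and 17.007 with nintedanib and fell by 0.85 ± 0.21 (adjusted p = 0.0194, edgeR). Cdkn2a read 8.49, 11.4, 12.5 and 15.5 CPM in water and 1.00, 0.795, 1.11, 8.48 and 3.63 with nintedanib, and fell by 1.99 ± 0.59 (adjusted p = 0.0405). Cdkn1b read 50.8 to 66.2 CPM in water and 79.0 to 94.1 with nintedanib, without overlap, and rose by 0.54 ± 0.10 (adjusted p = 0.00478). Within the nintedanib group Timeless was lowest in replicate 2 and highest in replicate 3, while Cdkn1b in the pair with growing hair genes lay inside the range of the other 3. Rb1, the retinoblastoma protein, rose by 0.53 ± 0.10 (adjusted p = 0.00510) and the D-type cyclin Ccnd2 by 0.96 ± 0.23 (0.0138), and the clamp loader subunit Rfc4 rose by 1.03 ± 0.21 (0.00670). Rpa1, a single-strand binding protein, rose by 0.36 ± 0.09 (adjusted p = 0.0200). Rb1 and Rfc4 share exonic bases with genes on the opposite strand (Lpar6 and Rcbtb2, Eif4a2). In the mitosis list Cenpk at 1.07 ± 0.35 (adjusted p = 0.0605), Ttk at 0.96 ± 0.32 (0.0644) and Lmnb1 at 1.37 ± 0.47 (0.0707) came nearest. The Cdkn2a call was lost without any 1 of the 4 water libraries or of nintedanib replicates 1, 2 and 3 (adjusted p 0.00324 to 0.107 over single libraries left out). The Timeless call was lost without water replicate 2 or 4 (0.00985 to 0.0824), and the Cdkn1b call held without each single library (highest adjusted p = 0.0272). None of these 3 calls passed when the second-run libraries were fitted alone. In that fit 0.382% of genes were higher and 0.197% lower. The calls of Rb1, Ccnd2, Rfc4 and Rpa1 were not examined in it or in other fits.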

How the data were processed

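Whole-skin RNA of 21 libraries was analysed. Per the submitters' processing notes the authors used FastQC, Trimmomatic, STAR and featureCounts with GRCm39 and deposited raw counts per gene symbol in 1 table; versions, settings and the handling of overlapping genes are not stated in the sources used here. Of the count columns, 0 mapped to no sample. Groups came from the labels. edgeR 4.0.16 (R 4.3.3; TMM, filterByExpr with a minimum count of 10, 20462 genes, quasi-likelihood test, group means of all 21 libraries) gave log2 fold changes, SEs from the F statistic and Benjamini-Hochberg adjusted p over all genes, called under 0.05. Log2 CPM used a prior count of 2. DESeq2 1.42.0, another normalization, no filter, narrower fits, replicate blocks and leaving out libraries were alternatives. The code was tested on simulated data. Figures used Python 3.11.15 and matplotlib 3.10.9.

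The members and lists were chosen with earlier results of these data known. Values per library were given for every called member and for the 2 members of each role with the lowest p in allogeneic against syngeneic skin, and for each other list the counts and the 3 genes with the lowest p in most comparisons were given. Promoters were those of the 3 lowest-p members of each pair of roles. Ube2c, Cenpe, Mki67, Kif20a, Ccnb1 and the lowest-p members of the other comparisons were named after their values were seen. None of the 34 pairs of libraries within a group agreed within sampling noise.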

Additional observations from a re-analysis of the deposited data

Results flagged for a closer look

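Mcm6, a subunit of the replicative helicase, read 60.4 CPM in water replicate 2, while the nearest water library read 37.4 CPM. The gap was 0.913 of the group's range, above Dixon's 95% critical value for 4 samples. This was 1 of 70 groups of member values examined, and chance gives about 1 in 20 groups.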

How the results depend on the processing

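The count of members higher in allogeneic than in syngeneic skin was 3 (13.8% of all genes). It was 6 with only the groups compared (14.3%), 13 with the first-run libraries alone (18.5%) and 5 with DESeq2 (15.5%). With no filter on low counts it was 2 (5.17%), and Mcm6 had an adjusted p of 0.0508 (edgeR). The count higher ranged from 1 to 5 without single libraries (9.95% to 13.6% of genes), with 0 to 1 lower. The 1 lower was Ube2c without allogeneic isotype replicate 3, where 10.1% of genes were lower. Under anti-IL1RAP against isotype 4 were lower with only the groups compared (7.91% of genes) and 2 with the first run alone (9.66%). Against syngeneic skin 2 were higher (5.58% of genes) and 1 lower (5.67%) with only the groups compared. Under nintedanib 1 was higher with DESeq2 (8.87% of genes), and 0 to 2 without single libraries. The count was 1 without water replicate 2 (2.8% of genes higher) and 2 without nintedanib replicate 2 (6.79%). The cause was not tested. Over the alternatives the members' median log2 fold change was 0.75 to 1.11 in allogeneic against syngeneic skin, -0.77 to -0.43 under anti-IL1RAP against isotype and -0.47 to 0.86 under nintedanib.

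Replicate numbers were not shown to pair the libraries: correlations of same-numbered libraries were -0.354 to 0.347 over the title and description numbers. With 3 or 4 pairs per comparison, this check cannot exclude a pairing. With the replicate number as a block the counts stayed at 3, 0, 0, 0 and 0. Of all genes 13.2% (title) and 12.3% (description) were higher in allogeneic isotype than in syngeneic skin with the block. The anti-IL1RAP change of Ube2c was 0.00052 (title) and 0.064 (description) with the block, and that of Mcm6 was -0.0071 (title). The calls of Orc1 under anti-IL1RAP and Timeless under nintedanib were lost with the block.

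Some signs turned. Anti-IL1RAP against isotype gave Mcm6 -0.0158 with RLE size factors, -0.0158 with symbols counted in both runs, -0.0145 with the first run alone, -0.0158 with DESeq2 and -0.18 to 0.15 without single libraries, and Ube2c -0.57 to 0.81. The difference of treatment effects of Ube2c was -1.17 to 0.21 without single libraries and 0.62 without nintedanib replicates 1 and 3. Nintedanib values without single libraries were -0.021 to 0.48 for Ccne1, -0.083 to 0.28 for E2f1, -0.034 to 0.44 for Rrm2 and -0.011 to 0.50 for Prc1. Without nintedanib replicates 1 and 3 they were -0.37 for Ccne1, -0.036 for E2f1, -0.59 for Rrm2, -0.042 for Tyms, -0.58 for Plk1, -0.68 for Bub1b, -0.78 for Ube2c, -0.46 for Top2a and -0.53 for Prc1. With only the libraries carrying the 2-lane note Ccne1 was -0.025 and E2f1 -0.020. With Tnnc2 counts subtracted, chosen after seeing the data, Ube2c was 1.02 in allogeneic and 0.060 in anti-IL1RAP against syngeneic skin.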
